A study of Arabidopsis thaliana with 12 samples.

Results

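The UGT73C cluster is a row of 6 neighbouring genes on chromosome 2 of Arabidopsis thaliana that encode UDP-dependent glycosyltransferases. The genes were taken by their locus identifiers, AT2G36750 to AT2G36800, and all 6 were among the 23911 genes measured. They are UGT73C1 (AT2G36750), UGT73C2 (AT2G36760), UGT73C3 (AT2G36770), UGT73C4 (AT2G36780), UGT73C6 (AT2G36790) and UGT73C5 (AT2G36800), which the reference annotation lists as DOGT1. The reference gives no symbol for AT2G36770 and AT2G36780, which are called UGT73C3 and UGT73C4 here by position alone. Position does not fix the numbering, since UGT73C6 comes before UGT73C5 on the chromosome. These names may be the other way round in other sources, so the locus identifiers decide which gene is meant. The cluster was chosen by its read counts in these samples, with the levels in all 4 groups known, and which comparison drew it is not recorded, so these levels and their fold changes are given as a description and without p-values, and calls in the fit only place the genes among all genes.

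Messenger RNA was sequenced from whole seedlings, 2 to 3 weeks old, in 4 groups of 3 samples. The groups were wild type Col-0 without abscisic acid (ABA), Col-0 at 4 h after a 50 µM ABA spray, and the mutant hda9-1, in which the histone deacetylase gene HDA9 is disrupted, without ABA and at 4 h after the same spray. Plants of all groups were raised at 20 °C, with 16 h of light and 8 h of darkness, and their medium held 1% sucrose. Groups follow the sample titles, because the treatment field of the labels gives no ABA for every Col-0 sample and ABA for every hda9-1 sample. No mock spray is named, so ABA cannot be told apart from the 4 h that passed. The labels speak of biological replicates without saying whether these were separate cultures, and the spread given here is that between these samples.

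Family 1 glycosyltransferases such as the UGT73C enzymes move glucose from UDP-glucose onto small molecules, which makes hormones, flavonoids and foreign compounds more soluble and often inactive. UGT73C5, also called DOGT1 for its action on the Fusarium toxin deoxynivalenol, and its neighbour UGT73C6 glucosylate brassinosteroids, the steroid growth hormones of plants. UGT73C6 also attaches glucose to flavonols, and UGT73C1 can glucosylate cytokinins and the explosive TNT. ABA is the hormone of drought and salt stress, and histone deacetylases take acetyl groups off histones, which is commonly linked to lower transcription.

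The cluster spans 14.8 kb (chr2:15410376-15425129, TAIR10.1), with all 6 genes on the minus strand. Each gene is a single exon without an intron, between 1628 and 2028 nt long, of which 1476 to 1491 nt are coding. Gaps of 482 to 1305 nt part the neighbours. In the direction of transcription their order is therefore UGT73C5, UGT73C6, UGT73C4, UGT73C3, UGT73C2 and UGT73C1, each annotated with its own transcript. A long non-coding RNA gene on the plus strand, AT2G36792, covers the whole UGT73C6 exon and is not among the genes with deposited counts. Library preparation kept the strand, but whether counting used it is not given in the sources used here, so UGT73C6 counts may hold antisense reads.

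The 6 copies are close relatives, and their coding DNA was 79.2 to 91.4% identical between pairs. The closest pairs were neighbours, UGT73C6 with UGT73C5 at 91.4% and UGT73C3 with UGT73C4 at 91.3%. The stretch that encodes the signature box of plant glycosyltransferases, the part of the enzyme that holds the sugar donor, shows this pairing, and it is printed here for both pairs from the TAIR10.1 sequence on the minus strand. It has 132 bases, at chr2:15423787-15423918 for UGT73C5, chr2:15420633-15420764 for UGT73C6, chr2:15415521-15415652 for UGT73C3 and chr2:15417912-15418043 for UGT73C4. Capitals mark the bases that differ from UGT73C5.
UGT73C5: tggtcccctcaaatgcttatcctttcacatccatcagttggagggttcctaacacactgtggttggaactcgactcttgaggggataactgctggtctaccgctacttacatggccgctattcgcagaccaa
UGT73C6: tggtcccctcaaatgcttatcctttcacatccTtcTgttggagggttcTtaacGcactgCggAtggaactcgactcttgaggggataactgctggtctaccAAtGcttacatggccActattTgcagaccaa
UGT73C3: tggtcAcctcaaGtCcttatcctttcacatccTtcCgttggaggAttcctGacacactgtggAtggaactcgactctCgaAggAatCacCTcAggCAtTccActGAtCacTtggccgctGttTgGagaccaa
UGT73C4: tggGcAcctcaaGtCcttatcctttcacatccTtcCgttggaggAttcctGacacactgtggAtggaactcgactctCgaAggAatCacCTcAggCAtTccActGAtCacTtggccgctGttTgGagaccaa
UGT73C6 differs from UGT73C5 at 11 of these bases, UGT73C3 at 26 and UGT73C4 at 27, while UGT73C1 and UGT73C2 differ at 27 and 31.

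Such likeness bears on counting, since a 75 bp read from an identical stretch cannot be assigned to a single copy. UGT73C3 and UGT73C4 share a run of 211 identical bases, at chr2:15415438-15415648 and chr2:15417829-15418039. Windows of read length that occur in both made up 8.08% of the UGT73C3 transcript and 7.01% of the UGT73C4 transcript. For UGT73C6 and UGT73C5 the longest run was 110 bases and the shared windows were 2.74 and 2.34%. UGT73C1 and UGT73C2 had no window in common with another annotated transcript on its own strand. The tool that made the counts could split reads of these shared windows between copies, and levels of the 4 genes in the closest pairs carry that uncertainty.

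Totals lay between 42703802 and 52820930 counts per sample. HDA9 was at 16.2 ± 0.721 CPM (counts per mega-count of library, with TMM scaling; SD, n = 3) in untreated wild type and at 5.34 ± 0.583 CPM in untreated hda9-1, and at 16.6 ± 0.252 and 5.16 ± 0.344 CPM with ABA. Summed over 5 root markers, levels were 233 to 286 CPM in untreated wild type, 71.1 to 103 CPM with ABA, 131 to 234 CPM in untreated hda9-1 and 37 to 58.2 CPM in hda9-1 with ABA, with no marker at 0 throughout. IRT1 carried most of this sum without ABA but not with ABA, with means of 192, 34.2, 133 and 13.1 CPM in the same order. In hda9-1 with ABA the mean of EIR1, at 14.5 CPM, was above that of IRT1. IRT1 and EIR1 fell with ABA in each genotype, while EXPA7, SHV2 and CASP1 had log2 fold changes of 0.16, -0.10 and -0.19 in wild type, none called. EIR1 was lower in untreated hda9-1 (-0.49), and the other 4 markers were at -0.53 (IRT1), -1.70 (EXPA7), -1.30 (SHV2) and -0.65 (CASP1) there, not called. The sum of 4 leaf markers was 21900 to 29900 CPM over all groups with none at 0, and 2 of them fell with ABA in each genotype, RBCS1B and CAB3. The part of root RNA in the results below was not tested, and in whole seedlings fewer cells of a type and less RNA per cell cannot be told apart.

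Per kb of exon, the scale on which genes are compared here, UGT73C5 and UGT73C6 were the most abundant members in untreated wild type. Their levels were 5.15 ± 1.95 and 4.23 ± 0.859 CPM per kb (SD, n = 3), and their samples overlapped. UGT73C3 followed at 1.2 ± 0.333, UGT73C4 at 0.691 ± 0.161 and UGT73C1 at 0.619 ± 0.5 CPM per kb, and UGT73C1 samples overlapped those of both UGT73C4 and UGT73C3. With ABA the order in wild type changed. UGT73C4 at 4.67 ± 0.702 and UGT73C5 at 4.5 ± 0.415 CPM per kb then overlapped at the top, UGT73C3 at 2.69 ± 0.551 and UGT73C6 at 2.4 ± 0.169 overlapped below them, and UGT73C1 was last at 0.679 ± 0.208. In hda9-1, UGT73C5 stood first at 12.9 ± 4.34 without and 8.99 ± 1.12 CPM per kb with ABA, above every sample of each other member in the same group.

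**Figure D1:**
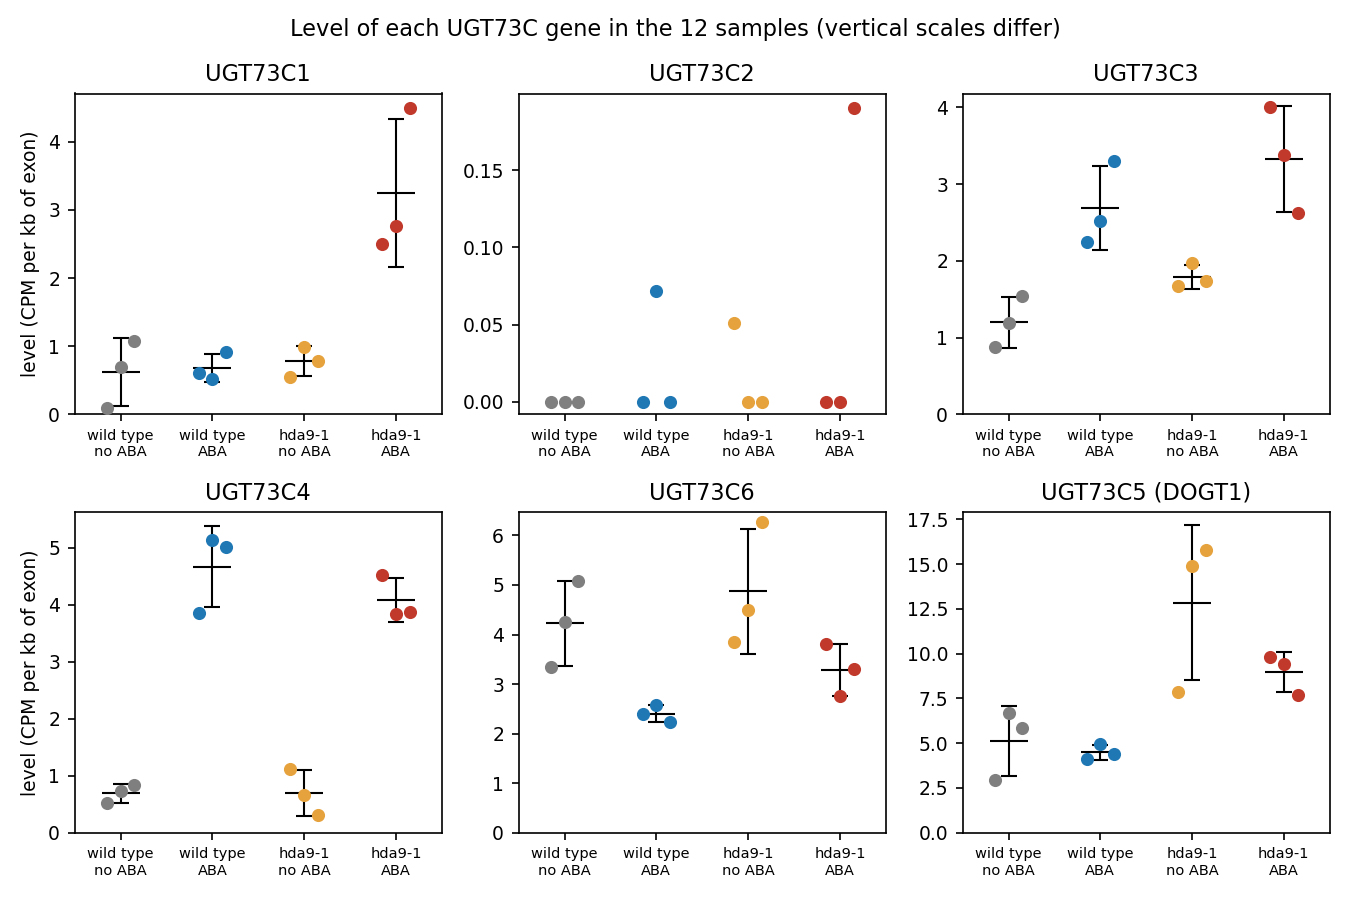
Level of each UGT73C gene in CPM per kb of exon (vertical axes, with a different scale for each gene) in the 4 groups. Points are samples, long ticks are means and bars are SD (n = 3), which are left out for UGT73C2. UGT73C4 separates the treated from the untreated samples, UGT73C1 separates hda9-1 with ABA (2.5 to 4.49 CPM per kb) from the other groups (at most 1.08), and UGT73C5 separates the genotypes.

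UGT73C4 had the largest change with ABA in the cluster. Its level was 1.04, 1.47 and 1.69 CPM in the 3 untreated wild-type samples and 7.83, 10.4 and 10.2 CPM in the treated ones. In hda9-1 it was 2.27, 1.33 and 0.622 CPM without and 9.18, 7.78 and 7.85 CPM with ABA. Treated and untreated samples did not overlap in either genotype, whereas the genotypes overlapped under both treatments. The log2 fold change with ABA was 2.76 ± 0.33 (SE) in wild type, which is 6.79-fold, and 2.55 ± 0.33 in hda9-1, which is 5.86-fold. Between the genotypes it was 0.01 ± 0.34 without ABA, with a 95% interval of -0.77 to 0.80, and -0.20 ± 0.30 with ABA (-0.88 to 0.48).

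UGT73C3, the closest relative of UGT73C4, moved the same way but less. Its level was 1.55, 2.1 and 2.73 CPM in untreated and 3.96, 4.46 and 5.85 CPM in treated wild type. In hda9-1 it was 2.96, 3.49 and 3.07 CPM without and 7.08, 5.98 and 4.63 CPM with ABA, and treated samples again lay above all untreated ones. The log2 fold change with ABA was 1.17 ± 0.24 in wild type and 0.89 ± 0.23 in hda9-1. All untreated hda9-1 samples exceeded all untreated wild-type samples, with a log2 fold change of 0.58 ± 0.24 that was not called. Counts of UGT73C4 were 0.619 to 0.7 times those of UGT73C3 in untreated wild type and 1.74 to 2.33 times with ABA, and in hda9-1 the ratio went from 0.203 to 0.769 without to 1.3 to 1.7 with ABA. Summed as a single feature, which removes the effect of reads split between them, UGT73C3 and UGT73C4 had log2 fold changes with ABA of 2.02 ± 0.20 in wild type and 1.63 ± 0.20 in hda9-1.

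UGT73C6, the brassinosteroid and flavonol glucosyltransferase gene, went the other way with ABA. It was at 5.62, 7.14 and 8.5 CPM in untreated and 4.01, 4.32 and 3.76 CPM in treated wild type, without overlap. In hda9-1 its level was 6.45, 7.54 and 10.5 CPM without and 6.39, 4.62 and 5.54 CPM with ABA, where the highest treated and the lowest untreated sample nearly met. The log2 fold change was -0.81 ± 0.21 in wild type and -0.57 ± 0.20 in hda9-1. The hda9-1 call ended without hda9-1 no ABA replicate 3 (-0.36), ABA replicate 2 (-0.46) or ABA replicate 3 (-0.58), with only the 2 groups compared in the fit (-0.59), and after each library was corrected for trends with GC and exon length (-0.46). Treated hda9-1 samples lay above treated wild-type samples, at 0.45 ± 0.21 (95% interval -0.03 to 0.93), which was not called.

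UGT73C5, the deoxynivalenol and brassinosteroid glucosyltransferase gene, was the member called between the genotypes without ABA. Its level was 5.76, 13 and 11.4 CPM in untreated wild type and 15.4, 29.2 and 30.9 CPM in untreated hda9-1. With ABA it was 8.07, 9.68 and 8.66 CPM in wild type and 19.3, 18.4 and 15.1 CPM in hda9-1. Every hda9-1 sample was above every wild-type sample, and hda9-1 no ABA replicate 1 was the lowest of its group. On the log2 scale the genotypes differed by 1.32 ± 0.30 without ABA, or 2.5-fold, which was called, and by 1.00 ± 0.30 with ABA (95% interval 0.31 to 1.69), or 2-fold, which lay just outside the threshold. The first was not called without hda9-1 no ABA replicate 3 (1.16) or with only the 2 groups compared in the fit (1.34), and the second was called under DESeq2 (0.98) and limma-voom (0.99). With ABA its fold changes were -0.19 ± 0.30 in wild type (95% interval -0.88 to 0.50) and -0.52 ± 0.29 in hda9-1 (-1.19 to 0.16), and neither was called.

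The ratio of UGT73C5 to UGT73C6 counts does not depend on library scaling. It was 1.03, 1.83 and 1.35 in untreated and 2.01, 2.24 and 2.31 in treated wild type, and 2.39, 3.88 and 2.94 in untreated and 3.01, 3.99 and 2.73 in treated hda9-1. The lowest hda9-1 ratio was above the highest wild-type ratio, and in wild type the treated samples were above the untreated ones. The sum of both genes had log2 fold changes between genotypes of 0.96 ± 0.24 without and 0.85 ± 0.24 with ABA, and both were called. Such a sum joins members chosen with these values known and has no share of all genes beside it, so its calls are a description only.

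UGT73C1, the cytokinin and TNT glucosyltransferase gene at the far end of the cluster, was high in a single group. Its level was 0.144, 1.18 and 1.82 CPM in untreated and 1.02, 0.876 and 1.54 CPM in treated wild type, and 0.93, 1.68 and 1.32 CPM in untreated hda9-1. In hda9-1 with ABA it was 4.22, 4.66 and 7.59 CPM, from 183, 230 and 344 counts, above all 9 other samples. The log2 fold change with ABA was 2.07 ± 0.57 in hda9-1, or 4.19-fold, and 0.15 ± 0.59 in wild type, with a 95% interval of -1.21 to 1.51. With ABA it was 2.26 ± 0.58 between the genotypes, or 4.78-fold, against 0.34 ± 0.59 without ABA. The call between genotypes with ABA ended without wild type ABA replicate 1 (2.18), 2 (2.08) or 3 (2.53), or without hda9-1 ABA replicate 3 (1.94).

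Wild type no ABA replicate 1 held only 8 UGT73C1 counts, and it was also the lowest of its group for UGT73C3, UGT73C4, UGT73C5 and UGT73C6. Without this library the UGT73C1 fold change with ABA in wild type was -0.38 and that between untreated genotypes -0.19, while UGT73C5 was still 1.04 higher in untreated hda9-1 on the log2 scale. hda9-1 no ABA replicate 1 was the lowest of its group for UGT73C1, UGT73C3, UGT73C5 and UGT73C6 and the highest for UGT73C4.

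UGT73C2 was nearly silent. Of the 12 libraries 9 had 0 counts, and the other 3, in different groups, had 4, 6 and 14 counts. Over a group the counts were 0 (95% Poisson interval 0 to 3.69) in untreated and 6 (2.2 to 13.1) in treated wild type. In hda9-1 they were 4 (1.09 to 10.2) without and 14 (7.65 to 23.5) with ABA. These intervals cover counting error only, and each of the 3 nonzero sums came from a single library. The gene did not pass the filter on low counts, and the fit therefore held 5 of the 6 members.

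Set against all 20924 genes tested, 3 of the 5 tested members were called at an adjusted p below 0.05 by edgeR for ABA in wild type, where 30.9% of all genes were called. Of these 2 were higher and 1 lower, against 17% and 14% of all genes. In hda9-1 it was 4 of 5 members, with 41.9% of all genes called, and 3 were higher and 1 lower against 23.3% and 18.6%. Between genotypes 1 of 5 was called without ABA, where 13.5% of genes were, and it was higher in hda9-1, as 6.98% of genes were, with 6.57% lower. With ABA it was again 1 of 5, also higher, where 12.7% of genes were called, 7.5% higher and 5.21% lower. The samples compared did not overlap at 3 members for ABA in wild type (51.6% of genes), 2 higher (25.2%) and 1 lower (26.4%). In hda9-1 they did not overlap at 4 members (46.7%), 3 higher (25.3%) and 1 lower (21.3%). Between genotypes there were 2 such members without ABA (36.5% of genes), both higher (17%, with 19.6% lower), and 3 with ABA (29.5%), all higher (15.2%, with 14.3% lower). The median log2 fold change of the 5 members was 0.15 and 0.89 for ABA in wild type and hda9-1, and 0.34 and 0.45 between genotypes without and with ABA. Over all tested genes these medians were -0.02, 0.01, -0.04 and 0.01. The comparisons share their groups in pairs, and the members were chosen with these values known, so nothing is read from the counts.

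**Figure D2:**
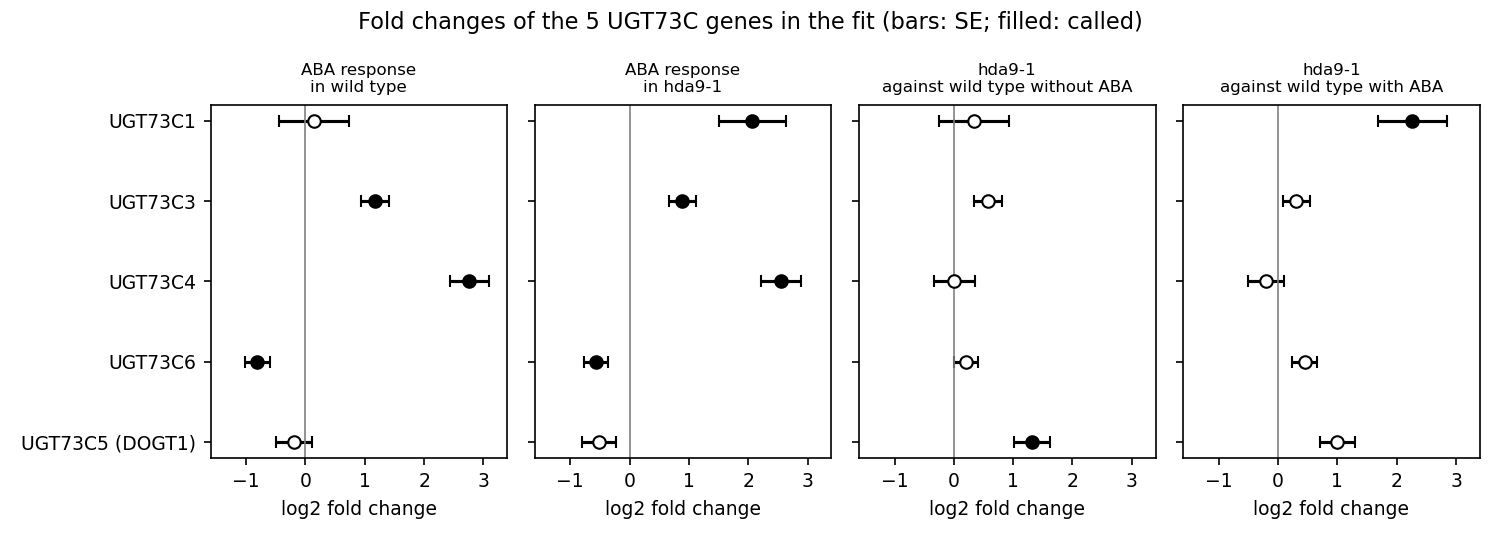
Log2 fold changes (horizontal axes) of the 5 tested UGT73C genes in 4 comparisons, with SE bars, where filled points were called at an adjusted p below 0.05 in the fit of all genes. UGT73C3 and UGT73C4 lie to the right and UGT73C6 to the left for ABA in both genotypes, and UGT73C1 (2.26) and UGT73C5 (1.32) are the filled points between genotypes.

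The difference of the ABA responses, hda9-1 minus wild type, was 1.92 ± 0.82 on the log2 scale for UGT73C1 (95% interval 0.03 to 3.80). It was 1.24 without wild type no ABA replicate 3 and 2.43 without wild type no ABA replicate 1. The difference was -0.27 ± 0.33 for UGT73C3, -0.21 ± 0.45 for UGT73C4, 0.24 ± 0.29 for UGT73C6 and -0.33 ± 0.42 for UGT73C5. None of the 5 was called by edgeR. Over all genes edgeR and limma-voom called 0 (0%), 2467 (11.8%) had an unadjusted p below 0.05 by edgeR, and DESeq2 called 129, with no member among them. The high UGT73C1 level after ABA in hda9-1 is thus not shown to be a different ABA response.

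Both the sum of the cluster and its make-up differed between groups. The summed level was 21.7 ± 6.63 CPM in untreated and 28.3 ± 2.9 CPM in treated wild type, and 39.3 ± 9.79 and 42.9 ± 2.84 CPM in hda9-1 (SD, n = 3). Counted as a single feature, it differed by 0.39 ± 0.22 with ABA in wild type and 0.12 ± 0.22 in hda9-1, and neither was called. Between genotypes it was 0.86 ± 0.22 higher in hda9-1 without ABA, which was called, and 0.59 ± 0.22 with ABA, which was not. As the members were chosen with these values known, calls of their sum are a description only. UGT73C4 held 6.58 ± 0.759% of the cluster's counts in untreated and 33.4 ± 1.75% in treated wild type, and UGT73C6 held 33.6 ± 5.67% and 14.4 ± 1.79%. UGT73C5 held 45.6 ± 5.98% in untreated wild type and 63 ± 7.05% in untreated hda9-1, and UGT73C1 reached 13 ± 4.9% in hda9-1 with ABA, against at most 4.23% on average in the other groups.

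**Figure D3:**
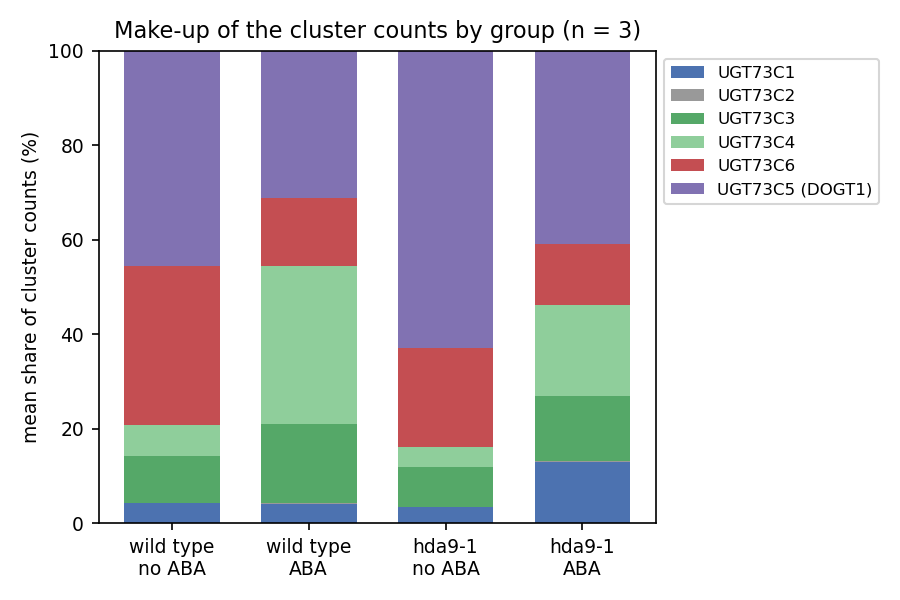
Mean share of the cluster's counts held by each gene (vertical axis, in percent; n = 3 per group) in the 4 groups. The UGT73C4 segment grows with ABA, from 6.58 to 33.4% in wild type and from 4.17 to 19.3% in hda9-1, and the UGT73C2 segment, at most 0.251%, is too thin to see.

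Likeness between neighbouring members varied. Over the 12 samples, the root mean square difference in log2 level, each gene centred on its own mean, was smallest between UGT73C6 and UGT73C5 (0.55) and largest between UGT73C4 and UGT73C6 (1.79), which also lie side by side. For UGT73C3 and UGT73C4 it was 0.99. UGT73C3 was nearer to UGT73C5 (0.79), UGT73C6 (0.89) and UGT73C1 (0.96), while the member nearest to UGT73C4 was UGT73C3. By the same measure over 18526 genes with a mean of at least 1 CPM, the genes most like UGT73C5 were the cytochrome P450 gene CYP81D11 (AT3G28740, 0.32), WTF1 (AT4G01037, 0.32) and AT3G44970 (0.33), where the median gene was at 0.75. CYP81D11 stood at 101 and 97.7 CPM in wild type and at 231 and 176 CPM in hda9-1, without and with ABA. Those most like UGT73C4 were ZFP5 (AT1G10480, 0.31), the basic chitinase gene HCHIB (AT3G12500, 0.31) and the ketoacyl-CoA synthase gene KCS3 (AT1G07720, 0.32), against a median of 1.44. HCHIB went from 45.3 to 244 CPM with ABA in wild type and from 50.3 to 254 CPM in hda9-1.

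Of the 10 nearest tested genes on each side of the cluster, 3 rose and 2 fell with ABA in wild type, where 17% and 14% of all genes did, and 4 rose and 3 fell in hda9-1, where 23.3% and 18.6% did. In hda9-1, 2 of the 20 were higher and 1 lower under each treatment, where 6.98% and 6.57% of all genes were without ABA and 7.5% and 5.21% with ABA. Their median log2 fold changes lay between -0.04 and 0.06. The immediate neighbours were SWC2 (AT2G36740), a subunit gene of the SWR1 chromatin remodelling complex, and AT2G36810, of which the latter fell by 0.28 ± 0.10 with ABA in hda9-1 (adjusted p = 0.040 by edgeR) and no other call was made for either. The largest rise was of ECP63 (AT2G36640), a late embryogenesis abundant protein gene, with 4.84 ± 0.66 in wild type and 6.06 ± 0.70 in hda9-1. ECP63 was very low without ABA, at 0.0804 CPM in wild type and 0.0535 CPM in hda9-1, and at 2.38 and 3.89 CPM with ABA. AT2G36690 fell by 1.14 ± 0.28 in wild type and 1.57 ± 0.29 in hda9-1.

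**Figure D4:**
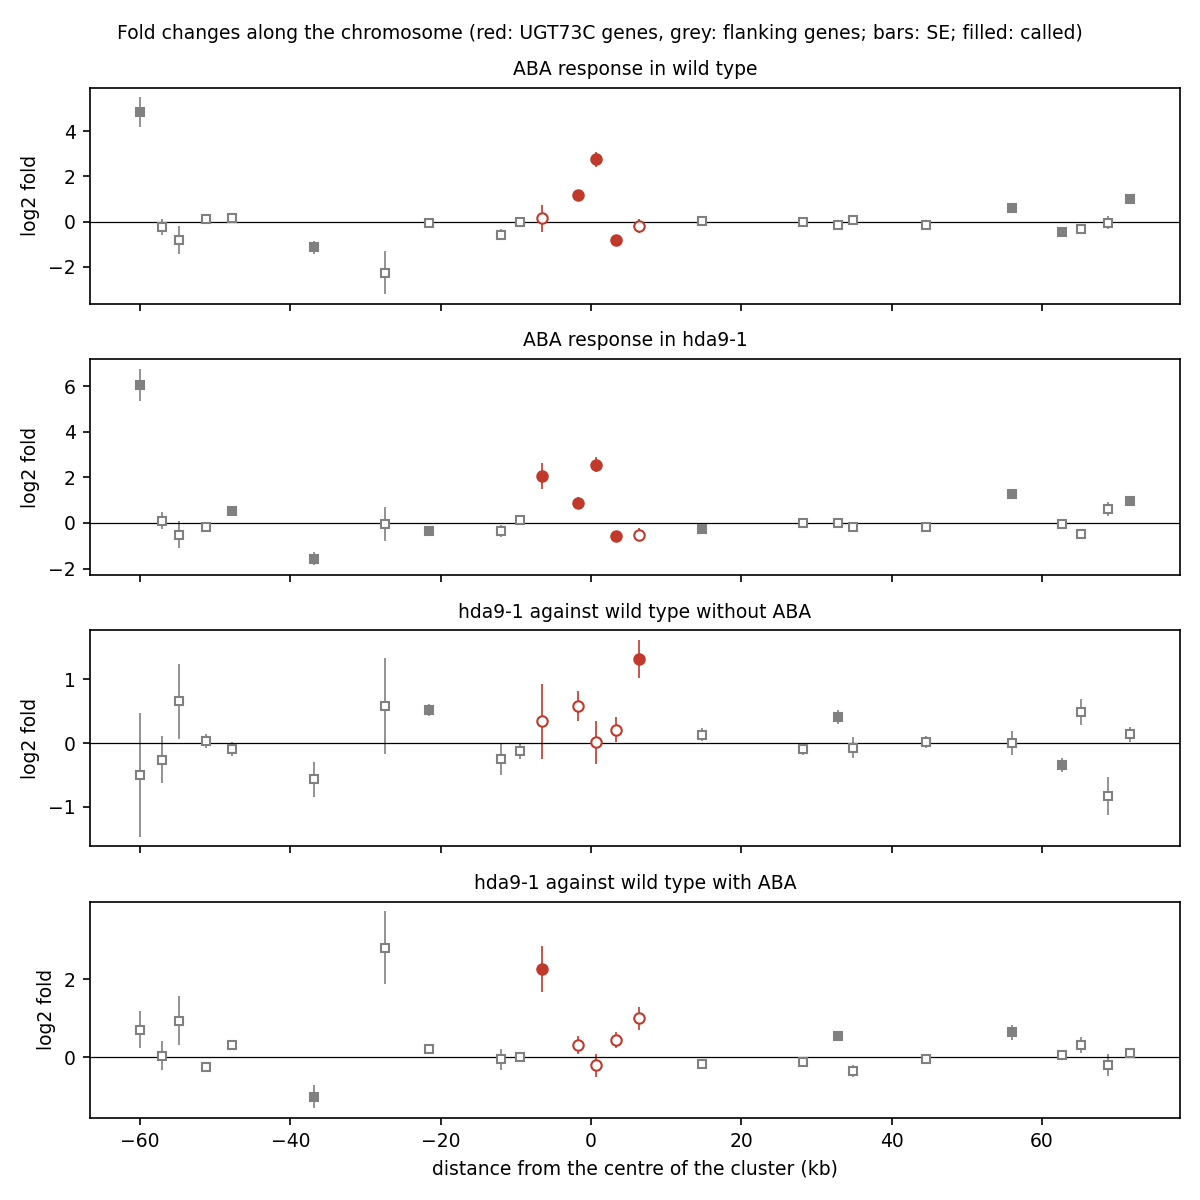
Log2 fold change (vertical axes, different scales) against distance from the centre of the cluster in kb, for the UGT73C genes (red circles) and 20 flanking genes (grey squares), with SE bars and filled symbols for called genes. The UGT73C genes differ among themselves within the span of 14.8 kb, from -0.81 to 2.76 for ABA in wild type.

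The DNA upstream of UGT73C3 and UGT73C4 is shown because these 2 members rose with ABA in both genotypes. The 250 bases before the annotated start of UGT73C3 (chr2:15416846-15417095) and UGT73C4 (chr2:15419392-15419641), minus strand of TAIR10.1, are printed in the direction of transcription, with TTGAC on either strand, the core of sites bound by WRKY factors, in capitals.
UGT73C3: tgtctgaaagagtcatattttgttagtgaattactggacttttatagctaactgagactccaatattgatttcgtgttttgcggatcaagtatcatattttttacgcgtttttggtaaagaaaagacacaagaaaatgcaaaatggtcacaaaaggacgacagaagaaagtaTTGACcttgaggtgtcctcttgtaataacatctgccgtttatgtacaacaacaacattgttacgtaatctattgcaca
UGT73C4: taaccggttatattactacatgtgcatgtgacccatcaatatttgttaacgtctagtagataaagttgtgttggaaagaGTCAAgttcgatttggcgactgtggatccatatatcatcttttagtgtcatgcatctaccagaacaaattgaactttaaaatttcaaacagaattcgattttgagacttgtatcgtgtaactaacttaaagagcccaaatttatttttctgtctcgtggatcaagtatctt
These windows were 60.6% identical over positions aligned without gaps, where pairs among all 6 members ranged from 48.3 to 65.2%. The windows end at annotated starts, and the leaders are annotated as 128 nt for UGT73C3 and 283 nt for UGT73C4. They may therefore not hold matching DNA, and their identity is not set against that of the coding DNA. Motifs, 5 in all, were searched on both strands in the 250 bases of all 6 members. The UGT73C6 window overlaps AT2G36792 and the UGT73C5 window overlaps AT2G36810, while the other windows overlap no annotated gene. ACGTG, the core of the ABA response element, was in none of them and in 22.9% of 27438 promoters of the same length of protein-coding genes. CACGTG, which contains ACGTG, was in none against 6.5%, and CGTGTG in none against 5.4%. TTGAC was in 3 against 44.9%, in UGT73C3, UGT73C4 and UGT73C5. TGACG, the core of TGA factor sites, was in 1 against 18.6%, in UGT73C5 at position -182 from the start, where it overlaps TTGAC. These are descriptions of letters in these windows only.

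UGT73C5 and UGT73C6 share part of their upstream DNA, which is shown because their count ratio differed between genotypes while UGT73C6 itself was not called. The UGT73C6 stretch lies within the non-coding RNA gene AT2G36792 of the plus strand. The 190 bases before the start of UGT73C6 (chr2:15421867-15422056) and UGT73C5 (chr2:15425130-15425319), minus strand, are printed with the bases that are identical in their best local alignment in capitals.
UGT73C6: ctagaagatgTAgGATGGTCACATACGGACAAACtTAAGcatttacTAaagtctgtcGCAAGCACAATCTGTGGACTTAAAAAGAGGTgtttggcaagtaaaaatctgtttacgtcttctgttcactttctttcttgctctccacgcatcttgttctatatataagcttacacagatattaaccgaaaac
UGT73C5: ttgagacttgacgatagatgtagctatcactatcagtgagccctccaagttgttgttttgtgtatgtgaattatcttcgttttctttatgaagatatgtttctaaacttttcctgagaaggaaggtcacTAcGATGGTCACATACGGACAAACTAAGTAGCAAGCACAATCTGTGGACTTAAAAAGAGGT
Of 61 bases aligned without gaps 60 were identical, and the block is longer in UGT73C6, where the bases in small letters inside it have no partner in UGT73C5 apart from the single mismatch. Within the printed stretches the marked block lies directly before the annotated start of UGT73C5 and from 180 to 103 bases before that of UGT73C6. The untranslated leader is annotated as 40 nt for UGT73C6 and 149 nt for UGT73C5. The cut of the stretches limits the block on both sides. Bases just upstream of the printed UGT73C6 stretch resemble small-letter bases of UGT73C5, so the likeness reaches further upstream than is marked. Upstream of the marked block, UGT73C5 carries the joined TTGACG, in small letters near the left end.

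Of 7 other group D UGT73 genes, which lie outside the cluster, 6 were tested. In hda9-1, 2 of them were higher without ABA, where 6.98% of all genes were, and 1 with ABA, where 7.5% were, and the median log2 fold change was 0.21 in both. UGT73B1 (AT4G34138) was 0.60 ± 0.11 higher in untreated hda9-1 (adjusted p = 0.0033 by edgeR), and UGT73B2 (AT4G34135) was 0.59 ± 0.15 higher without (adjusted p = 0.023) and 0.91 ± 0.16 higher with ABA (adjusted p = 0.0032). UGT73D1 (AT3G53150) fell with ABA, from 4.15 ± 1.28 to 0.557 ± 0.0315 CPM in wild type (log2 fold change -2.89 ± 0.35), and in hda9-1 by 2.04 ± 0.33. UGT73B1 fell by 0.53 ± 0.11 in hda9-1. No member of this list rose with ABA, where 17% of all genes rose in wild type and 23.3% in hda9-1.

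Genes of the hormones that UGT73C enzymes act on were counted in the same fit. Of 10 brassinosteroid synthesis genes 2 rose and 3 fell with ABA in wild type, against 17% and 14% of all genes, and 1 rose and 3 fell in hda9-1, against 23.3% and 18.6%. None was called by edgeR between untreated genotypes, where 13.5% of all genes were. With ABA 5 were lower in hda9-1, where 5.21% of genes were lower, and the median log2 fold change was -0.32 against 0.01 over all genes. The last were BR6OX2 (AT3G30180, -0.84 ± 0.14), CYP90D1 (AT3G13730, -0.78 ± 0.21), DWF4 (AT3G50660, -0.59 ± 0.13), DWF1 (AT3G19820, -0.52 ± 0.10) and CPD (AT5G05690, -0.49 ± 0.10). Of 4 brassinosteroid inactivation genes outside the cluster, BAS1 (AT2G26710) and BAT1 (AT4G31910) fell with ABA in both genotypes, by 1.02 ± 0.20 and 0.72 ± 0.11 in wild type. CYP72C1 (AT1G17060) was lower in hda9-1 under both treatments (-0.42 ± 0.13 and -0.59 ± 0.13) and BAS1 with ABA (-0.77 ± 0.20). UGT73C5 was called higher in hda9-1 only without ABA, and UGT73C6 was not called between genotypes under either treatment. None of the 4 inactivation genes outside the cluster was called higher in hda9-1, and the difference between them and UGT73C5 was not tested.

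The shares of all genes that rose and fell, 17% and 14% in wild type and 23.3% and 18.6% in hda9-1 for ABA, apply to the lists below, as do the 6.98% higher and 6.57% lower in untreated hda9-1 and the 7.5% and 5.21% with ABA. Of 19 genes of cytokinin conjugation, oxidation and response, 5 rose and 5 fell with ABA in wild type, and 5 rose and 3 fell in hda9-1, with median log2 fold changes of -0.14 and -0.03. The cytokinin glucosyltransferase gene UGT76C1 (AT5G05870) rose by 0.86 ± 0.12 in each, and the cytokinin oxidase gene CKX2 (AT2G19500) rose by 3.13 ± 0.74 and 3.89 ± 0.77. CKX2 was very low, with means of 0.0732 CPM in untreated and 0.665 CPM in treated wild type. In hda9-1 its means were 0.0555 and 0.869 CPM. The response regulator gene ARR3 (AT1G59940) was the single member called between genotypes, lower in untreated hda9-1 (-1.32 ± 0.31). Of 12 flavonol genes 10 were tested, of which 3 rose with ABA in wild type and 4 in hda9-1, with none lower and medians of 0.37 and 0.53. F3H (AT3G51240) rose by 1.36 ± 0.17 and 1.56 ± 0.18, and it was among 3 members lower in untreated hda9-1 (-0.61 ± 0.18), with FLS1 (AT5G08640, -0.96 ± 0.29) and AT1G06000 (-0.51 ± 0.13). Of 6 genes of ABA glucose conjugation and release 5 were tested, of which 1 rose and 1 fell with ABA in wild type and 2 rose and 1 fell in hda9-1, with medians of 0.34 and 0.26. AT3G21790 was higher with ABA (0.60 ± 0.09 in wild type and 0.46 ± 0.09 in hda9-1) and in hda9-1 (0.54 ± 0.09 without and 0.41 ± 0.09 with ABA). BGLU33 (AT2G32860) was lower in hda9-1 with ABA (-0.83 ± 0.22), and the medians of the list between genotypes were -0.22 without and -0.21 with ABA. UGT71C5 (AT1G07240) fell with ABA in both genotypes (-0.42 ± 0.09 and -0.47 ± 0.10).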

How the data were processed

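RNA of 12 seedling samples was prepared with poly(A) selection and a strand-keeping kit from 1 µg of RNA with 7 PCR cycles, per the labels' protocols. The deposited table holds counts, whole numbers per gene, with no further normalization found in the values. The submitters' processing notes name Bowtie2, Salmon, limma 3.56 and TAIR10 without roles, so the counts may be rounded estimates. Gene records, lengths and sequences came from RefSeq's TAIR10.1, which matched 23655 of 23911 genes.

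Genes were kept by filterByExpr (minimum count 10), which left 20924. One quasi-likelihood model with TMM scaling and 4 group means was fitted in edgeR 4.0.16 (R 4.3.3) to all samples, with two-sided tests and Benjamini-Hochberg adjustment over all tested genes within a comparison. A gene is called at an adjusted p below 0.05, and it is said to rise or fall only if called. SE is the log2 fold change divided by the root of the F statistic, and 95% intervals use 8 residual degrees of freedom. The script was tested on simulated counts. Sequences were compared with Biopython 1.88.

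The members, the gene lists and the tests were chosen with earlier results of these data known. Named genes were all 6 members, HDA9, flanking genes by position, called genes of the lists with the largest changes and the genes closest in pattern, and the members of short lists of calls were added after their values were seen. Alternatives were RLE and upper-quartile factors, library size alone, other filters, DESeq2 1.42.0, limma-voom (limma 3.58.1), only the groups compared, the replicate number as a block, removal of trends with length and GC content, a stricter threshold, copies summed, and each library left out.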

Additional observations from a re-analysis of the deposited data

How the results depend on the processing

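Over 25 fold changes of members, 512 of 545 alternative values kept both direction and call, 12 turned direction, 11 lost the call and 10 gained it. The number of members called for ABA in wild type was 3 under every alternative run. For ABA in hda9-1 it was 4, 3 with only the 2 groups compared or with length and GC trends removed (UGT73C6 lost), and 2 at an adjusted p below 0.01. It ranged from 3 to 5 when a library was left out. Between untreated genotypes it was 1, and 0 with only the 2 groups compared or at an adjusted p below 0.01, with a range of 0 to 1 when a library was left out. With ABA it was 1 between genotypes, and 2, with UGT73C5 added, under a filter of 1 CPM in 3 samples, DESeq2, limma-voom, only the 2 groups compared, the replicate block, and removal of length and GC trends. There it was 0 at an adjusted p below 0.01 and ranged from 0 to 2 when a library was left out. For the difference of the ABA responses it was 0 throughout, also when a library was left out (0 to 0).

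The values that turned direction were not called. For UGT73C4 between untreated genotypes the value was -0.02 with upper-quartile factors, -0.05 with library size alone, -0.14 with limma-voom and -0.02 with the replicate block, and -0.52 to 0.39 when a library was left out. With a library left out, UGT73C1 ranged from -0.38 to 0.82 for ABA in wild type and from -0.19 to 1.01 between untreated genotypes, UGT73C5 from -0.47 to 0.04 for ABA in wild type, UGT73C6 from -0.01 to 0.36 between untreated genotypes, and UGT73C4 from -0.59 to 0.29 for the difference of the ABA responses. UGT73C3 kept its direction and calls under every alternative run, and UGT73C4 kept its calls for ABA. The cause of these shifts was not tested. Titles share replicate numbers, and over all tested genes same-numbered samples had correlations of deviations from -0.13 to 0.12. Such values cannot tell whether these samples shared a culture or a day that acts on some genes. UGT73C2, at 0 to 14 counts per library, is too shallow for any comparison.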

Other observations

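Detoxification genes, listed because UGT73C enzymes act on foreign compounds, were higher in hda9-1 at several members. Of 15 xenobiotic and oxylipin detoxification genes 2 were higher in untreated hda9-1 and 5 with ABA, with none lower, where 6.98 and 7.5% of all genes were higher. Without ABA these were CYP81D11 (AT3G28740), at 101 ± 11.1 CPM in wild type and 231 ± 29.5 CPM in hda9-1 (1.19 ± 0.12, adjusted p = 0.00012 by edgeR), and the oxophytodienoate reductase gene OPR1 (AT1G76680, 0.56 ± 0.10, adjusted p = 0.0024). With ABA the called gene with the largest difference was the glutathione transferase gene GSTU25 (AT1G17180), at 2.02 ± 0.208 CPM in wild type and 4.86 ± 2.32 CPM in hda9-1 (1.26 ± 0.31, adjusted p = 0.020), while DTX1 (AT2G04040, 2.28 ± 0.76) and AT2G04050 (1.32 ± 0.84) were not called. The median over the 15 was 0.23 without and 0.71 with ABA, against -0.04 and 0.01 over all genes. For the ABA response, 3 of the 15 rose and 4 fell in wild type (17% and 14% of all genes), and 4 rose and 3 fell in hda9-1 (23.3% and 18.6%). GSTU4 (AT2G29460) rose by 2.44 ± 0.27 and 3.25 ± 0.28, and OPR1 fell by 1.67 ± 0.10 and 1.38 ± 0.10.

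Of 7 TGA, SCL14 and NAC regulator genes of detoxification 4 were higher in untreated hda9-1, where 6.98% of all genes were, and 2 with ABA, where 7.5% were, with none lower where 6.57% and 5.21% were. ATAF1 (AT1G01720) was at 33.2 ± 0.411 CPM in untreated wild type and 49.8 ± 4.12 CPM in untreated hda9-1 (0.59 ± 0.08, adjusted p = 0.00072 by edgeR). NAC032 (AT1G77450) rose with ABA by 1.98 ± 0.11 in wild type and 1.93 ± 0.10 in hda9-1. The lists were chosen with earlier results of these data known, and a relation of these genes to the UGT73C cluster was not tested.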
